A study of Mus musculus with 6 samples.

Results

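Among cells of CT26 tumors enriched for CD45+ cells, the authors labelled 4628 cells as innate lymphoid cells (ILCs), and 1079 of these carried transcripts of the T cell receptor (TCR) complex. The 1079 cells are described here and are called the *Cd3*-carrying ILC cells. They were chosen by their measured counts, as cells labelled ILC with 3 or more unique molecular identifiers (UMIs, each of which counts 1 captured mRNA) summed over *Cd3d*, *Cd3e* and *Trac*. They make up 23.3% of the ILC label (95% exact binomial interval 22.1 to 24.6, which covers counting error only) in a data set of 33961 cells. They are set beside the 2935 cells of the same label with 0 such UMIs, called here the rule-negative ILC cells, and beside the 3633 cells labelled T cell EFF. The remaining 614 ILC cells had 1 or 2 UMIs and were left out of both classes.

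CT26 is a mouse colon carcinoma line, grown in female Balb/c mice. Tumors were dissociated after treatment, enriched for CD45+ leukocytes with beads and profiled by droplet-based single-cell mRNA-seq, so each mouse contributed a mixture of leukocytes and other cells of its tumor. Despite the enrichment, the largest label was Stroma, with 15687 of the 33961 cells. The sample labels list 6 tumors in 3 groups of 2, namely vehicle and a low and a high dose of an antibody that joins anti-PD-1 to the GITR ligand (PD-1 GITR-L bispecific). The high dose is given as 30 mg/kg, and the low dose as 30 mg/kg in the field of the sample and as 10 mg/kg in the protocol. The table of counts holds 4 libraries, M1, M2, M5 and M6, whose names match no sample label. No library was therefore given a treatment, no treatment groups were compared, and no p-value is given. Values are pooled over the 4 libraries except where those of each library, or their lowest and highest, are shown.

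A T cell builds its receptor from an alpha and a beta chain, or from a gamma and a delta chain, and the receptor reaches the surface only with the CD3 chains (*Cd3d*, *Cd3e*, *Cd3g*) and the zeta chain (*Cd247*). CD8 and CD4 are coreceptors that divide alpha beta T cells into cytotoxic and helper or regulatory cells. Natural killer (NK) cells and other ILCs lack a rearranged receptor, kill or secrete cytokines through germline receptors such as NKp46 (*Ncr1*), and can still transcribe some unrearranged TCR constant genes and single CD3 chains. The 3 genes of the rule lie on GRCm38 (GENCODE M21) at chr9:44981786-44987339 for *Cd3d*, chr9:44998740-45009627 for *Cd3e* and chr14:54220521-54224206 for *Trac*, the constant region of the alpha chain.

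Most *Cd3*-carrying cells had far more T cell UMIs than the minimum. Of the cells labelled ILC, 494 had 1 UMI of the rule genes, 120 had 2, 63 had 3, 57 had 4 and 56 had 5. Over wider ranges, 194 cells had 6 to 9 UMIs, 334 had 10 to 19, 324 had 20 to 49 and 51 had 50 or more. Of the *Cd3*-carrying cells, 903 (83.7%) had 6 or more UMIs and 709 (65.7%) had 10 or more. Their median was 14 UMIs, against 23 in T cell EFF, where no minimum was set. These counts are not scaled for depth, and median depth was 17182 UMIs in *Cd3*-carrying cells and 10049 in T cell EFF. The share of the ILC label that they took was 23.7% (255 of 1075 cells) in M1, 17.9% (164 of 915) in M2, 23.4% (298 of 1275) in M5 and 26.6% (362 of 1363) in M6. M2 had the lowest share and M6 the highest, and with no replicate of a library no difference between them was tested.

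**Figure D1:**
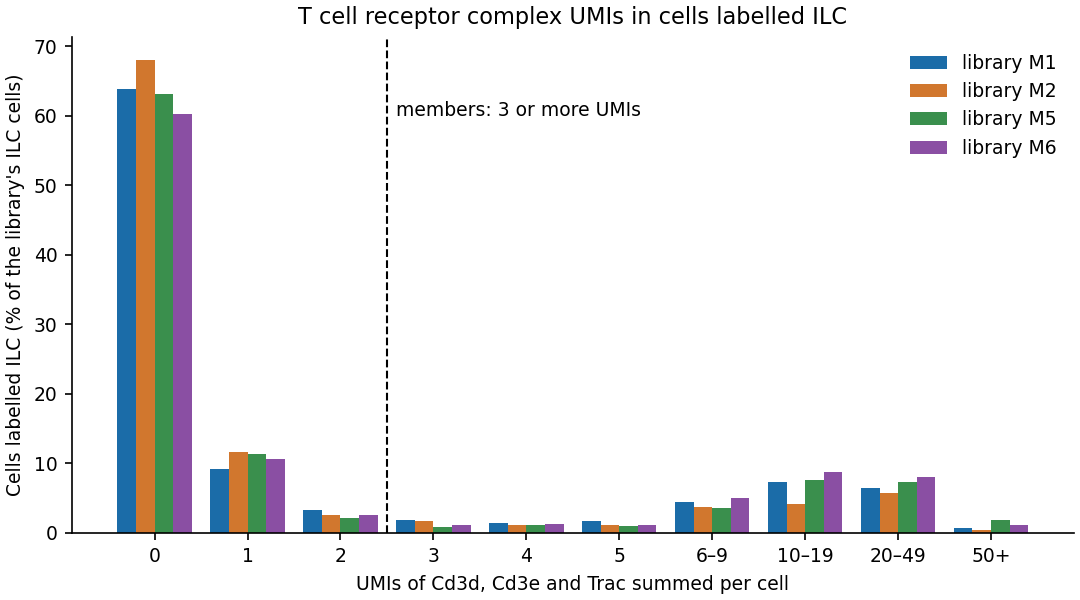
Cells labelled ILC by their UMIs of *Cd3d*, *Cd3e* and *Trac* (x axis, UMIs per cell), as a percent of each library's ILC cells (y axis), with a bar per library. The dashed line marks the minimum of 3 UMIs, and ranges to the right of 5 UMIs are wider than 1 UMI, so their bars are not comparable in height with the single values. In all 4 libraries most ILC cells had 0 UMIs, and most cells past the line had 6 or more.

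The cells just outside and just inside the minimum were as follows. The 120 cells with 2 UMIs had a median of 9576 UMIs in all, 318 CPM (counts scaled to the same total of UMIs in every class) of *Cd3g* and 484 of *Ncr1*, and 7.5% of them had a UMI of *Cd8a* or *Cd8b1*. The 63 cells with 3 UMIs had a median of 9088 UMIs, 293 CPM of *Cd3g* and 364 of *Ncr1*, and 17.5% had such a UMI. In CPM, however, *Cd8a* was lower in the cells with 3 UMIs, at 8.16, than in those with 2, at 16.0.

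The rule picked cells of other labels as well. Among labels for T cells, 96.8% of T cell EFF, 94.1% of T cell MEM and 86.9% of NKT cells met the minimum of 3 UMIs. It was met by 22.9% of Myeloid cells, 3.23% of NK cells and 1.29% of Stroma cells, although Stroma cells were the deepest of these, at a median of 40692 UMIs. Depth differs among the labels, so the rule was also applied after each cell was thinned at random to 2000 UMIs, with shallower cells left out. It then held for 7.72% of 4519 ILC cells (interval 6.96 to 8.54), 3.89% of 2547 Myeloid cells, 0.83% of 4218 NK cells, 0.0895% of 15642 Stroma cells and 74.2% of 3545 T cell EFF cells.

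The ILC label was set by correlation with reference profiles, and transcripts of the CD3 complex, which ILCs lack on their surface, were counted. A UMI of *Cd3g*, the CD3 gene that the rule did not use, was found in 97.5% of *Cd3*-carrying cells, 21.1% of rule-negative ILC cells and 98.1% of T cell EFF, and after thinning in 69.3%, 9.26% and 92.6%. In the same cells *Ncr1* was found in 74.3%, 87.0% and 8.26%, and after thinning in 32.2%, 61.9% and 1.95%. The *Cd3*-carrying cells were picked for UMIs of other genes of the same complex. Their share with *Cd3g* is therefore in part fixed by the rule and is no independent check of the label. As a class they held *Cd3g* and *Ncr1*, although not every cell had *Ncr1*, and they are called here by their rule.

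The *Cd3*-carrying ILC cells were deep. Their median was 17182 UMIs and 3994 genes per cell, against 8045 UMIs and 2512 genes in rule-negative ILC cells and 10049 UMIs and 2865 genes in T cell EFF. The median ranged from 13501 UMIs in M2 to 20539 in M5, and in each library it was above the medians of both other classes. Of ILC cells with fewer than 5000 UMIs, 11.2% carried 3 or more T cell UMIs, and the share rose through 13.7%, 23.3% and 42.8% to 63.8% of ILC cells with 40000 or more. A scrublet score, which rates how much a cell resembles a simulated mixture of 2 cells, had a median of 0.11 in the *Cd3*-carrying cells, 0.0313 in rule-negative cells and 0.0263 in T cell EFF. A score above 0.25 was given to 6.21% of *Cd3*-carrying cells (interval 4.84 to 7.82), 2.35% of rule-negative cells and 3.25% of T cell EFF. Mitochondrial transcripts had medians of 3.91%, 3.56% and 4.07% of UMIs in the 3 classes. Barcodes that occur in more than 1 library were found for 222 cells, and 6 of these were among the *Cd3*-carrying cells. The part that depth, doublet scores and shared barcodes have in the results was not tested.

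**Figure D2:**
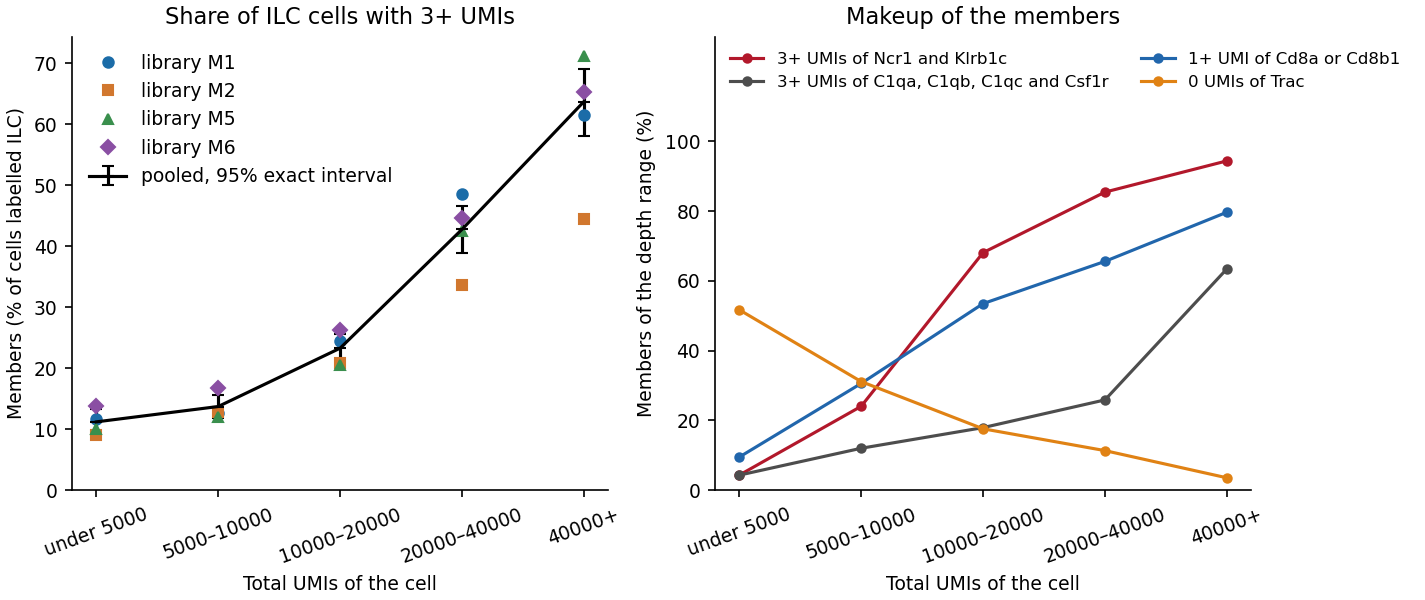
Left, the share of ILC cells with 3 or more UMIs of *Cd3d*, *Cd3e* and *Trac* (y axis, percent) by the total UMIs of the cell (x axis), pooled with its 95% exact interval (black) and by library (colored points). Right, the percent of *Cd3*-carrying cells in each depth range with NK, macrophage or CD8 UMIs or without *Trac*. The pooled share rises from 11.2% to 63.8%, and the share with 3 or more UMIs of *Ncr1* and *Klrb1c* from 4.31% to 94.4%.

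Per cell, the *Cd3*-carrying ILC cells overlapped rule-negative ILC cells in NK cell transcripts such as *Ncr1* and *Gzma*, and they held T cell transcripts such as *Cd3g* and *Cd8a* below the level of T cell EFF. These are means of UMIs per cell, not scaled for depth. *Ncr1* (chr7:4337724-4345164), the activating receptor NKp46 of NK cells, had 5.67, 4.55, 7.0 and 5.78 UMIs per *Cd3*-carrying cell in M1, M2, M5 and M6. In rule-negative cells it had 5.55, 5.86, 6.72 and 6.01, and in T cell EFF 0.299, 0.137, 0.366 and 0.286. Carrying and negative cells overlapped, and both were above every library of T cell EFF. *Cd8a* (chr6:71373427-71379173), the alpha chain of the CD8 coreceptor, had 4.38, 3.67, 4.90 and 3.66 UMIs per *Cd3*-carrying cell in the same order. It had 0.017 to 0.0323 in rule-negative cells and 7.95 to 9.49 in T cell EFF. The 3 classes did not overlap for *Cd8a*, and the carrying cells lay between the others.

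*Cd3g* (chr9:44969572-44980431) had 17.5, 14.9, 16.7 and 15.5 UMIs per *Cd3*-carrying cell, against 0.818 to 0.924 in rule-negative cells and 20.6 to 26.3 in T cell EFF. *Lat*, the adaptor that carries the signal of the TCR onward, had 1.79 to 2.71 UMIs per carrying cell, which overlapped the 2.02 to 3.05 of T cell EFF, and 0.19 to 0.24 in rule-negative cells. *Gzma*, a granule protease of NK cells, had 70.4 to 157 UMIs per carrying cell and 89.7 to 116 in rule-negative cells, and T cell EFF held 5.07 to 13.2. *Tyrobp*, the adaptor of activating NK receptors, had 18.1 to 29.3, 16.8 to 20.3 and 1.17 to 2.45 in the same order. Carrying and negative cells overlapped for *Gzma* and *Tyrobp*, and T cell EFF lay below both. The targets of the bispecific were also counted. *Pdcd1*, which encodes PD-1, had 3.99 to 5.29 UMIs per carrying cell, 0.179 to 0.434 in rule-negative cells and 6.72 to 9.37 in T cell EFF, with no overlap. *Tnfrsf18*, which encodes GITR, had 4.71 to 7.41, 1.84 to 2.56 and 4.21 to 5.75, so carrying cells overlapped T cell EFF and lay above rule-negative cells.

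**Figure D3:**
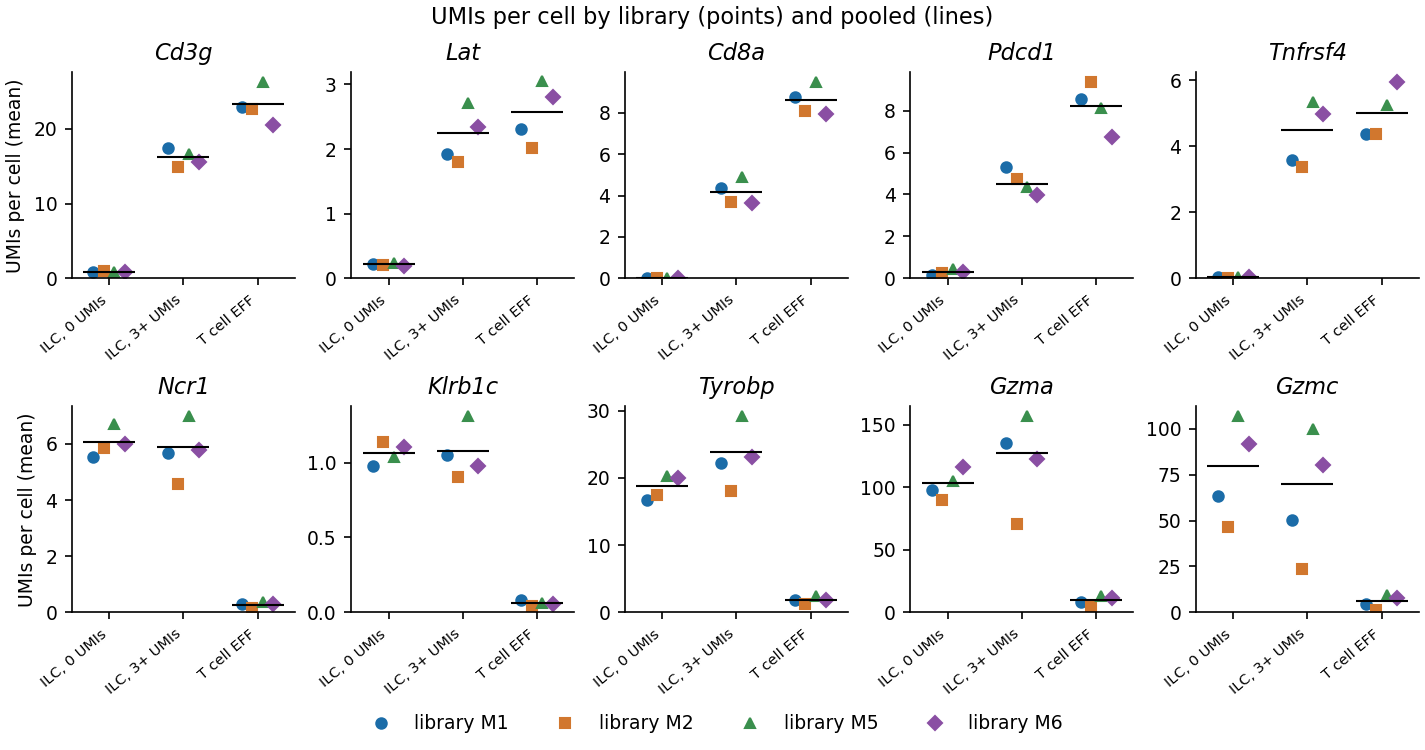
Mean UMIs per cell (y axis) of 10 genes in rule-negative ILC cells (0 UMIs), *Cd3*-carrying ILC cells (3 or more UMIs) and T cell EFF, with a point per library and a line for the pooled value. For *Cd3g*, *Cd8a* and *Pdcd1* the carrying cells lie between the other classes, and for *Ncr1*, *Klrb1c*, *Tyrobp*, *Gzma* and *Gzmc* they lie near the rule-negative cells.

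Expression scaled for depth was compared next, which asks how the transcript mixture of the *Cd3*-carrying cells differs from that of rule-negative ILC cells. UMIs were summed per library and class and scaled to CPM, and log2 ratios used a pseudocount of 1 CPM. A gene was called higher or lower when the ratio was at least 2-fold in the same direction in 4 of 4 libraries and the higher class had at least 20 CPM. The label and the rule both rest on the cells' expression, so these calls are a description and no test, and all genes are given as background. The rule genes were left out. Of 5938 genes, 214 (3.6%) were called higher in *Cd3*-carrying cells and 4 (0.0674%) lower, and the median log2 ratio over all genes was 0.03.

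Ranked by the library in which the ratio was smallest, the 10 highest genes had at most 2.48 CPM in rule-negative cells. They reached 20 CPM only through the carrying cells, which were picked for T cell UMIs. The presence of T cell genes among them is therefore in part fixed by the rule. *Cd8b1*, the beta chain of CD8, had 136 CPM in *Cd3*-carrying and 0.797 in rule-negative cells, a log2 ratio of 6.25 that was at most 6.76 in a library. *Cd8a* followed with 5.79 (171 and 2.12 CPM). *Tnfrsf4*, which encodes the costimulatory receptor OX40, had 5.74 (185 and 2.48 CPM). *Nrn1* followed at 5.16, *Cd6*, a costimulatory surface protein of T cells, at 5.09, and *Cd5*, a damper of TCR signals, at 4.89. *Themis*, which is needed for thymic selection of T cells, was at 4.60, and *Wisp1*, *Gm8369* and *Gldc* were at 4.26, 4.24 and 3.95. The 4 genes called lower were *Gzmc* (-1.32, 2878 and 7182 CPM), *Gadd45g* (-1.37), *Ncr1* (-1.17, 242 and 546 CPM) and *Car2* (-1.05). *Eef2k*, *Klrb1f*, *Gm44040*, *Klrb1c*, *Tmsb15a* and *Styk1* followed with log2 ratios of -0.95 to -1.36 and missed the fold in at least 1 library.

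By groups of genes, the coreceptors *Cd8a*, *Cd8b1* and *Cd4* had 171, 136 and 21.6 CPM in carrying cells and 2.12, 0.797 and 0.521 in negative cells. They were called higher, but reached the minimum of 20 CPM only through the carrying cells, so this count is not set against the share of all genes. In the TCR and CD3 list, 2 of 5 genes beside the rule genes were called higher, against 3.6% of all genes. They were *Cd3g*, with a log2 ratio of 3.07, and *Trbc2*, with 1.61. The cells were picked for genes of the same complex, so this count is in part fixed by the rule. *Trbc1*, the other constant region of the beta chain, was at 798 CPM in rule-negative cells, 717 in *Cd3*-carrying cells, 827 in NK cells and 799 in T cell EFF. *Trbc1* and *Trbc2* are near-identical, and reads can be split between them in a way that was not checked here, so their separate levels are uncertain. *Trdc*, the constant region of the delta chain, had 183 CPM in rule-negative and 177 in *Cd3*-carrying cells, and 296 in NK cells. Its log2 ratio was -0.05 in sums over cells, and 0.92 when each cell's CPM was averaged, which weights shallow cells as much as deep ones. Among 15 genes for T cell signalling and identity, *Lat*, *Cd5*, *Cd6*, *Bcl11b* and *Themis* were called higher and none lower, where *Bcl11b* is a transcription factor that holds the T cell fate. All of these called genes reached 20 CPM only through the carrying cells, so their count is not set against the share of all genes. The other 10 included *Lck*, the kinase that starts TCR signals, with 244 CPM in carrying and 258 in negative cells, and *Thy1* with 366 and 376.

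Of 20 NK receptor and identity genes, *Ncr1* was called lower and *Itgam* higher, and the list's median log2 ratio was -0.52. *Itgam*, which NK cells share with myeloid cells, had 62.6 CPM in *Cd3*-carrying and 13.8 in rule-negative cells. *Tyrobp* (981 and 1691 CPM), *Klrb1c* (44.1 and 95.7) and *Eomes*, a transcription factor of NK cells (122 and 176), were lower in CPM in every library and were not called. Of 13 cytotoxic effector genes only *Gzmc* was called, as lower, against 0.0674% of all genes, and the median of the list was -0.74. *Gzma*, *Gzmb* and *Prf1*, which encode granzymes A and B and perforin, had 5226, 2580.4 and 930 CPM in carrying cells and 9269, 4523 and 1487 in negative cells. Of 9 cytokine and chemokine genes, *Ifng* (log2 ratio 2.03) and *Tnf* (2.25) were called higher, against 3.6% of all genes. Of 11 inhibitory receptor genes, *Pdcd1* (2.75) and *Tox*, a transcription factor of exhausted T cells (1.77), were called higher. Of 11 genes for costimulatory and cytokine receptors, the costimulatory *Tnfrsf4* and the cytokine receptor genes *Il2ra* (1.71), *Il7r* (2.62) and *Il21r* (1.86) were called higher. The costimulatory *Tnfrsf18* was not called, at 0.36, nor were *Tnfrsf9* and *Icos*. Of 9 genes for tissue residency, *Cxcr6* (2.23) and *Ccr7* (3.42) were called higher, both chemokine receptors. *Itgam*, *Tox*, *Tnfrsf4*, *Il21r* and *Ccr7* reached 20 CPM only through the carrying cells. The counts of their lists are therefore not set against the share of all genes. None of 13 cell cycle genes and none of 10 interferon-stimulated genes was called, with medians of -0.23 and 0.53.

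Macrophage transcripts were also higher in the *Cd3*-carrying cells. Of 9 macrophage genes 8 were called, among them *Lyz2* (1134 and 180 CPM), *Apoe* (244 and 40.05) and *C1qa* (193 and 32.5). *C1qc*, *Cd68*, *Csf1r* and *Mrc1* reached 20 CPM only through the carrying cells, so this count is not set against the share of all genes. The 10 genes of the list, none of them at 0, summed to 2125 CPM in carrying cells, with a range of 1805 to 2602 over libraries. They summed to 403 CPM (295 to 582) in rule-negative cells, 680 (438 to 915) in T cell EFF and 11120 (9546 to 12080) in Myeloid cells. Of mast cell and neutrophil genes, 2 of 4 were called, *Mcpt4* and *S100a8*, and the 6 genes of the list summed to 367 and 143 CPM in carrying and negative cells. The 5 B cell genes summed to 3.73 and 4.97 CPM and the 3 erythroid genes to 0.533 and 0.337, so few transcripts of those cells were present in either class. Of 7 tumor or stroma genes none was called, and the 8 genes of the list summed to 446 CPM (262 to 584) in carrying, 264 (161 to 426) in negative cells and 315 in T cell EFF. By library this sum was 584, 266, 262 and 582 CPM in carrying and 426, 355, 161 and 172 in negative cells of M1, M2, M5 and M6, so it was lower in carrying cells in M2. The 6 dendritic cell genes summed to 186, 33.0 and 382 CPM in the same order of classes, of which *Ccr7*, a gene that T cells also express, made up 164, 14.4 and 359 CPM. Of 7 helper ILC and helper T cell genes, *Areg* and *Il17a* were called higher, and of 5 T reg genes *Foxp3*, *Il2ra* and *Tnfrsf4*. *Il17a*, *Foxp3*, *Tnfrsf4* and, above, *Mcpt4* reached 20 CPM only through the carrying cells. The counts of their lists are therefore not set against the share of all genes, and *Il2ra* and *Tnfrsf4* are also in the list of costimulatory and cytokine receptors. Of the dendritic cell list *Ccr7* alone reached the minimum of 20 CPM, and it did so only in the carrying cells, so its call says nothing of the list. Without cells that had 3 or more UMIs of *C1qa*, *C1qb*, *C1qc* and *Csf1r*, 127 genes were called higher and 3 lower, 121 and 2 of them among those above, and the log2 ratio was 5.84 for *Cd8a*. In that setting *Ncr1*, at -0.98, and *Car2* were no longer called lower. Without cells with a doublet score over 0.25, 260 genes were called higher, 213 of them among the 214. In cells of 5000 to 20000 UMIs, which narrows the gap in depth, 135 genes were called higher and 9 lower, of which 104 and 3 were among the 214 and 4 above, and *Gadd45g* was no longer called lower.

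The other comparison was with T cell EFF, the label of effector T cells. Of 6085 genes, 198 (3.25%) were called higher in the *Cd3*-carrying ILC cells and 94 (1.54%) lower, with a median log2 ratio over all genes of -0.02. Both comparisons use the same *Cd3*-carrying cells. Ranked by the library in which the ratio was smallest, *Ncr1* came first, at 3.59 (242 and 19.2 CPM), with 3.39 to 4.37 over libraries. In cells of 5000 to 20000 UMIs of both classes its ratio was 5.25. *Klra1*, a receptor for MHC class I, was at 3.65, *Car2*, a carbonic anhydrase, at 3.27 and *Clnk*, an adaptor of immune receptors, at 3.15. *Trdc* was at 3.63, with 177 and 13.4 CPM. *Mmp12*, an elastase of macrophages, was at 3.43, and *Rab27b*, *Tyrobp*, *Klrb1c* and *Klrb1f* were at 3.02, 2.92, 3.14 and 3.09. Of 19 NK receptor genes, 11 were called higher and none lower, and the list's median was 1.81. *Ncr1*, *Klrb1c*, *Klri2*, *Klrg1*, *Itgam* and *Cd7* reached 20 CPM only through the carrying cells, so this count is not set against the share of all genes.

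Lower than in T cell EFF were coreceptor and cell division genes. *Cd8a* was at -1.79 (171 and 597 CPM) and *Cd8b1* at -1.80 (136 and 476), while *Cd4* was at 0.25 and was not called. *Ccnb1*, a cyclin of mitosis, came first in the same ranking, at -2.03 (7.31 and 33.0 CPM). *Bub1*, *Ccna2*, *Ube2c*, *Cenpf* and *Aurkb*, all genes of mitosis, were at -1.73 to -1.99. *Slc17a6* was at -2.01 and *Igfbp7* at -1.92. Of 15 cell cycle genes 8 were called lower and none higher, including *Mki67* at -1.48 (71.1 and 200.5 CPM). *Ccnb1* and *Cdc20* reached 20 CPM only through T cell EFF, so this count is not set against the share of all genes. In the TCR and CD3 list, *Cd3g* (-1.28) and *Trbc2* (-1.18) were called lower. Of 11 inhibitory receptor genes, *Pdcd1* (-1.61), *Lag3* (-1.47) and *Havcr2* (-1.17) were called lower, against 1.54% of all genes. None of 11 genes for costimulatory and cytokine receptors was called. *Gzma* (2.94) and *Gzmc* (2.78) were called higher, whereas *Gzmb* was at 0.08 and *Prf1* at 0.23. Of 9 macrophage genes, 8 were called higher against T cell EFF, here with *Fcgr3* and without *Apoe*. *Csf1r* and *Mrc1* reached 20 CPM only through the carrying cells, so this count is not set against the share of all genes. In cells of 5000 to 20000 UMIs, 119 of the 198 higher and 62 of the 94 lower calls were shared. Of the other lists, *Cd6* and *Themis* among 16 T cell signalling genes and *Cxcr6* among 9 genes for tissue residency were called lower, against 1.54% of all genes. From the 7 helper genes, *Il17a* was called higher. *Il17a* reached 20 CPM only in the carrying cells. No gene was called among 9 cytokine, 10 interferon-stimulated, 5 T reg, 1 dendritic cell, 7 tumor or stroma and 4 mast cell and neutrophil genes.

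Transcripts of T and NK cells were counted in the same *Cd3*-carrying cells. A UMI of *Cd8a* or *Cd8b1* together with a UMI of *Ncr1* or *Klrb1c* was found in 484 of 1079 *Cd3*-carrying cells, or 44.9% (interval 41.9 to 47.9). It was found in 3.03% of rule-negative ILC cells, 8.84% of T cell EFF and 3.75% of NK cells, at median depths of 8045, 10049 and 5397 UMIs. After thinning to 2000 UMIs, which left out 4 carrying cells, the shares were 11.3% (9.43 to 13.3), 0.458%, 1.64% and 0.925%. NK cells should lack CD8, and their share of 0.925% is given for comparison, although 3.23% of cells with that label also met the rule. *Cd3g* with an NK UMI was found in 24.5% of thinned *Cd3*-carrying cells and 1.92% of T cell EFF, and in 7.09% of NK cells and 6.87% of rule-negative cells.

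By coreceptor, 43.4% of *Cd3*-carrying cells had a CD8 UMI and none of *Cd4*, 15.4% had *Cd4* and no CD8, 9.45% had both, and 31.8% had neither. After thinning, the shares were 31.1%, 4.0%, 0.465% and 64.5%, and those of T cell EFF were 81.4%, 2.20%, 1.13% and 15.3%. The libraries differed without thinning. CD8 alone was found in 53.7%, 51.8%, 40.6% and 34.5% of carrying cells of M1, M2, M5 and M6, and *Cd4* alone in 9.41%, 5.49%, 18.5% and 21.5%. M1 and M2 had the higher CD8 shares and the lower *Cd4* shares. After thinning, the shares in the same order were 37.2%, 33.3%, 30.2% and 26.5% for CD8 alone and 1.19%, 1.23%, 5.70% and 5.80% for *Cd4* alone. *Foxp3*, the transcription factor of regulatory T cells (T regs), followed the same split of libraries. A *Foxp3* UMI was found in 234 carrying cells (21.7%), namely in 8.63%, 6.10%, 29.9% and 31.2% of those of M1, M2, M5 and M6. Per cell it had 0.184, 0.177, 1.01 and 0.97 UMIs in these libraries, and in T cell EFF 0.0648, 0.0776, 0.438 and 0.456, so both classes were higher in M5 and M6. A *Foxp3* UMI was found in 0.239% of rule-negative cells. Of the 234 cells, 60.3% had a *Cd4* UMI, 70.1% had 3 or more UMIs of *Ncr1* and *Klrb1c*, and the median depth was 25185 UMIs. After thinning, 5.40% of carrying cells had a *Foxp3* UMI, against 2.85% of T cell EFF and 0.106% of rule-negative cells.

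The *Cd3*-carrying cells were not uniform in their NK and macrophage transcripts. They were divided by 3 or more UMIs of *Ncr1* and *Klrb1c* (NK high) and by 3 or more UMIs of *C1qa*, *C1qb*, *C1qc* and *Csf1r* (macrophage high). The limits were set after values were seen, and the classes are ranges of counts, not cell types. *Ncr1* and the macrophage genes set the division, so their levels in it only describe it. NK high and macrophage low held 461 cells (42.7%), NK high and macrophage high 220 (20.4%), NK low and macrophage high 59 (5.47%) and both low 339 (31.4%). Median depth was 20976, 43477, 13876 and 6899 UMIs in the same order. Scores above 0.25 were given to 9.11%, 4.09%, 3.39% and 4.13% of these cells. The NK high, macrophage low cells had 354 CPM of *Ncr1*, 645 of *Cd3g* and 166 of *Cd8a*, and 51.4% of them had a *Cd8a* UMI.

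The 339 cells low in both were further divided by *Trac*, again after values were seen. A UMI of *Trac* was present in 242 of them, with a median depth of 8642 UMIs. These had 1073 CPM of *Cd3g*, 266 of *Cd8a*, 42.0 of *Cd4*, 56.0 of *Foxp3* and 391 of *Tnfrsf4*, and their *Ncr1* was at 35.5 CPM. Their *Tyrobp* was at 443 CPM against 129 in T cell EFF, and *Gzma* at 1828 against 680.

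The other 97 had no *Trac* UMI, so they met the rule by *Cd3d* and *Cd3e* alone. A lead of gamma and delta chain genes in them is therefore in part fixed by the division. These 97 cells are led by *Tcrg-C1*, *Blk*, *Cd163l1* and *Actn2*. They were the shallowest, with a median of 4699 UMIs, and none had a doublet score above 0.25 (exact upper bound 3.73%). They made up 9.41%, 11.6%, 6.71% and 9.39% of the carrying cells in M1, M2, M5 and M6. *Trdc* (chr14:54142851-54148868) had 1518 CPM, against 147 in the other *Cd3*-carrying cells, 183 in rule-negative cells and 13.4 in T cell EFF, and ranged from 990 in M5 to 2530 in M1. A *Trdc* UMI was found in 79 of the 97. *Tcrg-C1* (chr13:19214103-19217024), a constant region of the gamma chain, had 277 CPM in the 97 cells, 7.51 in the other carrying cells and 0.951 in rule-negative cells. The gamma constant genes are close copies, and how reads were shared among *Tcrg-C1*, *Tcrg-C2* and *Tcrg-C4* is uncertain. *Cd163l1*, a scavenger receptor also known from interleukin-17-producing gamma delta T cells, had 446 CPM and was found in 38 cells, and *Blk*, a kinase of B cells and of those T cells, had 102 CPM in 29 cells. *Zbtb16*, the transcription factor PLZF of innate-like T cells and ILC precursors, had 120 CPM against 10.8 in the other carrying cells. *Il17a* (chr1:20730905-20734496), the cytokine interleukin-17A, had 552 CPM, but 222 of its 313 UMIs were in 5 cells. By library it had 2298, 165, 0 and 269 CPM. *Cd3g* was at 1423 CPM, close to the 1614 of T cell EFF, and *Cd8a* at 44.1, with a UMI in 7 cells. *Ncr1* was at 70.5 CPM, found in 32 cells. *Cd3g* was found in 93 of the 97 cells.

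**Figure D4:**
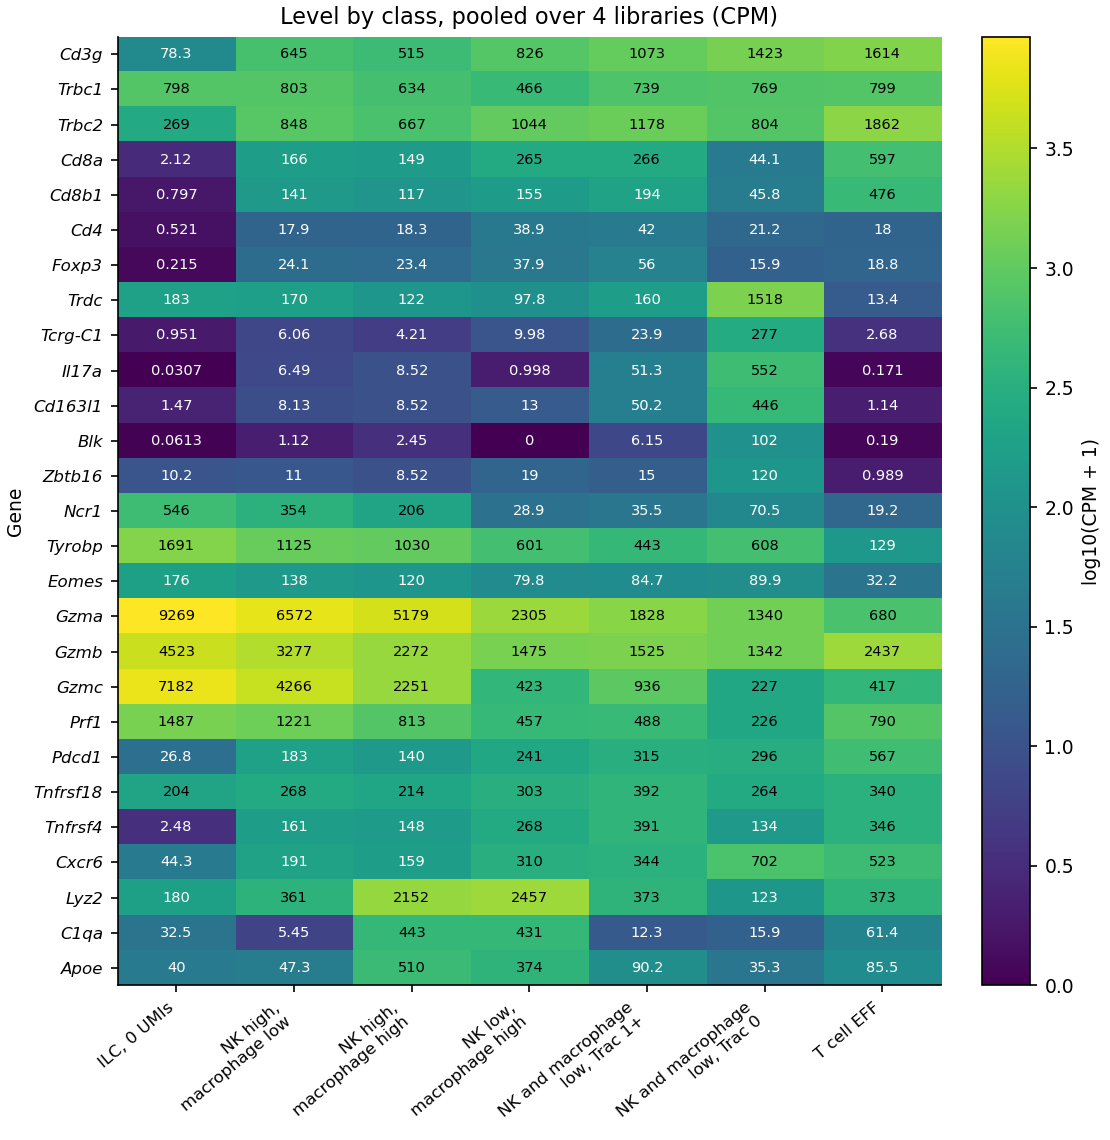
Levels in CPM (printed in each cell, color as log10 of CPM + 1) of 27 genes (rows) in rule-negative ILC cells, in 5 classes of *Cd3*-carrying ILC cells and in T cell EFF (columns), pooled over 4 libraries. *Ncr1* falls from 354 to 35.5 CPM and *Cd3g* rises from 645 to 1073 between NK high, macrophage low cells and cells low in both with *Trac*, and *Trdc*, *Tcrg-C1* and *Cd163l1* are high in the cells without *Trac*.

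The classes had different shares along depth. Of *Cd3*-carrying cells with fewer than 5000 UMIs, 51.7% had no *Trac* UMI, 9.48% had a CD8 UMI and 4.31% were NK high. At 40000 UMIs or more, 3.55% had no *Trac* UMI, 79.7% had a CD8 UMI, 94.4% were NK high and 63.5% macrophage high. *Trdc* fell from 1363 to 120 CPM and *Cd3g* from 1580 to 491 CPM between these ranges. *Ncr1* was at 81.9, 185, 287, 294 and 205 CPM over the 5 ranges, highest at 20000 to 40000 UMIs. A gene is found by its UMIs more often in a deep cell, so the shares depend on depth by construction. The minimum of 3 UMIs also asks for a higher CPM of the rule genes in a shallow cell than in a deep one, so the fall of T cell levels such as that of *Cd3g* along depth is in part fixed by the rule.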

How the data were processed

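The deposited table holds whole-number UMI counts for each gene in each cell, without normalization, which per the labels and the paper's methods the authors made with CellRanger 3.0.2 on GRCm38, and the authors' library and cell type label of each cell, the latter from correlation with ImmGen profiles. For each of the 33961 cells the 31053 genes added up to the total that was deposited, and the shallowest cell had 1220 UMIs. The authors name no doublet removal or correction for free RNA. Analyses used pandas 2.3.3, scipy 1.17.1 and numpy 2.4.6 under Python 3.11.15. The 4 library names match no sample, so the planned treatment test was not run. Cells were compared as stated in the report. The calling rule was tested on simulated counts without differences between libraries. Thinning was checked on the *Cd3*-carrying cells themselves, against the share with *Ncr1* that a formula gives. Doublet scores came from scrublet (scanpy 1.11.5, expected rate 0.06), run on each library. Its automatic thresholds were not used, no cell was removed, and 0.25 served as a limit in an alternative. Intervals are 95% exact binomial. Named genes are those of the rule and of 19 lists (197 genes, of which 4 are absent from the table under these symbols) and the 10 genes up and down with the largest smallest-over-libraries ratio. Genes named for the divisions of the *Cd3*-carrying cells were chosen after values were seen. The cells, lists and tests were chosen with earlier results of these data known. Gene positions are from GENCODE M21. One listed gene is not reported here.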

Additional observations from a re-analysis of the deposited data

How the results depend on the processing

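No paired analysis was possible because the replicate numbers of the labels belong to treatments that no library could be given. Calls required the fold within each library, whereas the printed log2 ratios and most shares were pooled over the libraries. The share of ILC cells with T cell UMIs was 25.9%, 22.0% and 20.7% at minimums of 2, 4 and 5 UMIs, 16.4% for 2 or more *Trac* UMIs alone, 7.72% after thinning and 19.3% without cells with macrophage UMIs (an alternative added after the data were seen), and 22.0 to 24.6% with each library left out. Against rule-negative cells, genes called higher were 429 without a filter on low genes, 135 in cells of 5000 to 20000 UMIs and 127 without cells with macrophage UMIs. Genes called lower were 7 with a pseudocount of 0.1 CPM, 10 with each cell's CPM averaged, 9 in cells of 5000 to 20000 UMIs, 7 without doublet scores over 0.25, 8 with median-of-ratios size factors and 4 to 8 with each library left out, 8 without M6. With each cell's CPM averaged, *Car2* and *Gadd45g* lost their lower call, and in cells of 5000 to 20000 UMIs *Gadd45g* did. With each library left out, 213 to 248 were higher. Against T cell EFF, a pseudocount of 10 CPM gave 131 higher and 40 lower and no filter on low genes 358 higher, and with each library left out there were 209 to 219 higher and 98 to 107 lower. The shares of thinned *Cd3*-carrying cells depended on depth. At 1000 UMIs, 4000 UMIs and no thinning they were 20.7%, 48.6% and 74.3% for *Ncr1*, 51.5%, 83.9% and 97.5% for *Cd3g*, 3.06%, 8.95% and 21.7% for *Foxp3* and 19.6%, 35.4% and 63.4% for *Trdc*. In the same order, CD8 without *Cd4* was 20.3%, 41.4% and 43.4% and *Cd4* without CD8 2.87%, 7.77% and 15.4%. With each library left out, *Trdc* was 24.2 to 30.0%, *Ncr1* 31.4 to 33.5%, *Cd3g* 69.0 to 69.9% and *Foxp3* 4.35 to 6.45%. Of 420 log2 ratios of 15 genes recomputed under 14 alternatives, 411 kept their sign, and the other 9 were of *Trdc* and *Mki67* against rule-negative cells. *Trdc*, reported at -0.05, was at 0.92 with each cell's CPM averaged, 0.36 in cells of 5000 to 20000 UMIs and 0.24 without cells with macrophage UMIs. *Mki67*, reported at 0.01, was at -0.53 in cells of 5000 to 20000 UMIs. In cells of 5000 to 20000 UMIs, which narrows the gap in depth, *Cd8a* and *Ncr1* were at 6.0 and -1.18 against rule-negative cells and at -1.93 and 5.25 against T cell EFF. The causes of these shifts were not tested.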

Other observations

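The 614 ILC cells with 1 or 2 UMIs of *Cd3d*, *Cd3e* and *Trac*, which were in neither class of the report, had a median of 10424 UMIs per cell. Their *Ncr1* was at 499 CPM and *Trdc* at 196 CPM, against 546 and 183 in rule-negative ILC cells and 242 and 177 in *Cd3*-carrying cells. *Cd3g* was at 141 CPM, *Cd8a* at 5.77, *Tnfrsf4* at 9.95 and *Lyz2* at 212. These lay between rule-negative cells (78.3, 2.12, 2.48 and 180 CPM) and *Cd3*-carrying cells (666, 171, 185 and 1134 CPM), and nearer to the former. A CD8 UMI together with an *Ncr1* or *Klrb1c* UMI was found in 0.826% of the 605 cells that could be thinned. Among *Cd3*-carrying cells, 152 (14.1%) had 2 or more UMIs each of *Trdc* and of a gamma chain constant gene, and 55.3% of these had 3 or more UMIs of *Ncr1* and *Klrb1c*. *Il17a* was found in 50 *Cd3*-carrying cells (4.63%), of which 34 were low in both NK and macrophage UMIs.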
